A study of Rattus norvegicus with 30 samples.

Results

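The genes described here are markers of endothelium, the cell layer that lines blood and lymph vessels. They were chosen by name from a list of 10 and looked up by gene symbol in a table of 32545 genes, 22293 of them annotated as protein coding. The 9 genes found were *Cdh5*, *Kdr*, *Flt1*, *Tek*, *Emcn*, *Vwf*, *Plvap*, *Ehd3* and *Egfl7*, and *Pecam1* was not analysed here. The study asked how the kidney of male Sprague-Dawley rats responds to a high salt diet. Rats of the LS groups ate a diet with 0.4% NaCl, and those of the HS14 and HS21 groups ate 4.0% NaCl for 14 and 21 d. Poly(A) mRNA was sequenced from snap-frozen pieces of the cortex (Cx) and the outer medulla (OM) of the right kidney, without strand information. There were 5 libraries in each of the 6 groups, 30 in all, numbered 1 to 5 for LS, 6 to 10 for HS14 and 11 to 15 for HS21 in both tissues, and the collected kidneys of each group gave both tissues. The tissues were treated as separate samples, since the sources used here do not state whether equal numbers name the same rat.

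Counts on genes summed to 13953714 to 17048749 per library in Cx LS, 15379007 to 21842843 in Cx HS14 and 14641135 to 15627211 in Cx HS21. They summed to 12748841 to 14838776 in OM LS, 5408126 to 16557589 in OM HS14 and 12899490 to 15810724 in OM HS21. The lowest total belonged to OM HS14 replicate 10, which also had the lowest exonic and the highest intronic share of mapped reads, and the lowest mapping rate, in the quality statistics that accompany the study. Each of the 9 genes had between 173 counts (*Egfl7*, OM HS14 replicate 10) and 6140 counts (*Plvap*, OM HS14 replicate 8) in a library, and all 9 passed the filter on low counts in all 7 comparisons. Levels are given as CPM, the counts of a gene relative to a library's total after TMM scaling (trimmed mean of M values), and as CPM per kilobase of gene (RPKM) where genes are compared with each other. Log2 ratios, their SE and *P* values come from edgeR's quasi-likelihood F-test, and adjusted *P* are Benjamini-Hochberg values over the whole table of tested genes, with a threshold of 0.05.

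The tissue labels were read against markers of other cells. Summed over 8 podocyte genes, Cx LS libraries held 439 to 496 CPM and OM LS libraries 72.2 to 211 CPM. The sum of 4 thick ascending limb genes was 1335 to 1960 CPM in Cx LS and 10010 to 22050 CPM in OM LS. These sums separated the tissues in every LS library, but OM LS replicate 2 stood apart. For 6 proximal tubule genes it held 10850 CPM against 555 to 4935 CPM in the other OM LS libraries, and its podocyte sum of 211 CPM was the highest of the OM.

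As background, vascular endothelial growth factor (VEGF) acts on endothelium through the receptor kinases encoded by *Kdr* and *Flt1*, and angiopoietins act through the kinase encoded by *Tek*. The kidney holds several kinds of endothelium. The fenestrated capillaries of glomeruli lie beside podocytes in the Cx, a source of VEGF. The OM is supplied by the vasa recta, which enter it as arteriolar and leave it as venous vessels. *Cdh5* encodes the cadherin of endothelial junctions, *Emcn* the surface sialomucin endomucin, *Vwf* the clotting glycoprotein von Willebrand factor, *Plvap* the protein of the diaphragms that span endothelial fenestrae and caveolae, *Ehd3* an endocytic ATPase found in glomerular endothelium, and *Egfl7* a secreted endothelial protein.

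Per length, *Plvap* was the most abundant of the 9 genes in all 6 groups and *Emcn* came second. In Cx LS the order by mean RPKM was *Plvap* (62.5 ± 4.06, SD, n = 5), *Emcn* (40.2 ± 0.918), *Egfl7* (29.1 ± 3.37), *Kdr* (26.7 ± 1.60), *Ehd3* (24.1 ± 2.89), *Tek* (17.8 ± 1.28), *Flt1* (17.2 ± 1.16), *Cdh5* (9.48 ± 0.589) and *Vwf* (6.41 ± 1.07). Neighbours in this order overlapped between libraries for *Egfl7* and *Kdr*, *Kdr* and *Ehd3*, and *Tek* and *Flt1*, and the other 5 neighbouring pairs did not. In OM LS the order was *Plvap* (97.3 ± 40.2), *Emcn* (41.9 ± 13.2), *Egfl7* (28.0 ± 8.16), *Tek* (17.4 ± 6.71), *Ehd3* (13.2 ± 3.32), *Vwf* (11.2 ± 3.27), *Flt1* (10.2 ± 1.42), *Cdh5* (9.88 ± 3.20) and *Kdr* (9.28 ± 1.18), and every neighbouring pair overlapped. Within libraries the first ranks were steadier than these ranges, since *Plvap* exceeded *Emcn* and *Emcn* exceeded *Egfl7* in all 5 libraries of each group. *Vwf* was last in all 3 Cx groups and in OM HS14, and *Kdr* was last in OM LS and OM HS21.

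**Figure D1:**
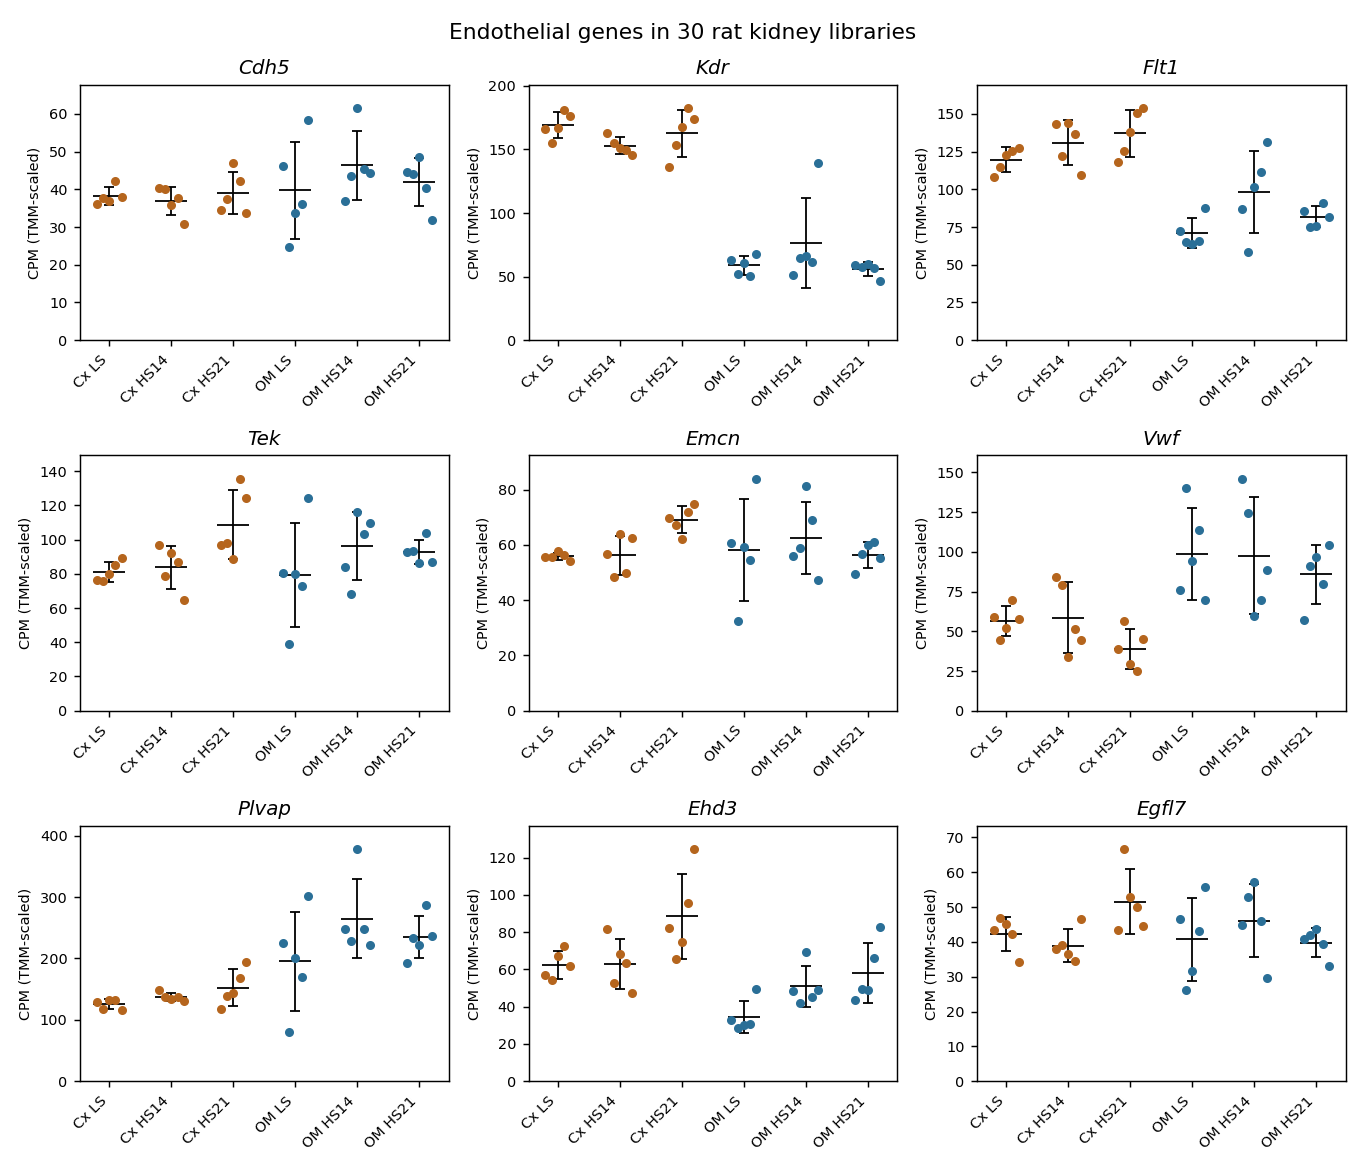
CPM (TMM-scaled, linear axis from 0) of each of the 9 endothelial genes in the 30 libraries, by group, with each library as a point and the mean and SD as a bar with whiskers. *Kdr* lay at 136 to 182 CPM in Cx and at 46.6 to 139 CPM in OM, where the 139 CPM of OM HS14 replicate 10 stood apart from the other values of at most 68.0.

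The first comparison asked how the 9 genes differed between the tissues on the LS diet. In OM LS against Cx LS, 1 of 9 was higher, where 21.3% of the 14295 genes tested were higher, and 3 of 9 were lower, where 19.5% were lower. The higher share lies near that of all genes, and with 9 genes the lower share is not far from it either, so the counts say little about endothelial genes as a group. Their median log2 ratio was −0.05, against 0.03 for all genes tested. In tissue pieces, fewer endothelial cells and less of an mRNA per endothelial cell cannot be told apart.

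*Kdr* (ENSRNOG00000046829, chromosome 14, 34727623 to 34787183 of Rnor_6.0) encodes the main signaling receptor of VEGF. Its level was 166, 155, 167, 181 and 176 CPM in Cx LS replicates 1 to 5, and 63.0, 52.0, 60.7, 50.4 and 68.0 CPM in the OM LS replicates of the same numbers. All OM LS libraries were far below the lowest Cx LS library. The log2 ratio of OM LS to Cx LS was −1.53 (SE 0.088, adjusted *P* = 1.89e-06), the most negative of the 9, and it kept its call in every other setting and with any library left out. *Flt1* (ENSRNOG00000000940, chromosome 12, 9034308 to 9205905) encodes the receptor that binds VEGF with high affinity and little kinase signaling. It was at 108, 115, 123, 125 and 127 CPM in Cx LS and at 72.2, 65.1, 64.0, 66.0 and 87.7 CPM in OM LS, again without overlap. Its log2 ratio was −0.76 (SE 0.092, adjusted *P* = 0.000127).

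*Ehd3* (ENSRNOG00000007744, chromosome 6, 25074955 to 25100977) was at 56.9, 54.4, 67.5, 72.7 and 61.6 CPM in Cx LS and at 32.8, 28.5, 30.4, 30.5 and 49.5 CPM in OM LS. The groups did not overlap, although OM LS replicate 5 lay well above the other OM LS libraries. The log2 ratio was −0.88 (SE 0.15, adjusted *P* = 0.000989). *Kdr*, *Flt1* and *Ehd3* were thus 3 of 9 genes whose LS groups did not overlap, against 29.1% of all genes tested.

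*Vwf* (ENSRNOG00000019689, chromosome 4, 158088505 to 158219523) went the other way. Its level was 58.8, 44.3, 52.2, 69.9 and 57.7 CPM in Cx LS and 76.1, 140, 94.5, 114 and 69.5 CPM in OM LS. The groups overlapped only in OM LS replicate 5 and Cx LS replicate 4, and the log2 ratio was 0.80 (SE 0.20, adjusted *P* = 0.00931). The call was kept in every other setting and with any library left out. *Vwf* is also stored in platelets, whose 7 markers summed to 21.8 to 26.7 CPM in Cx LS and 18.9 to 41.6 CPM in OM LS, with *Itga2b* the most abundant and *Gp1bb* at 0 in all 30 libraries. Over the LS libraries that sum did not pass the exact permutation test (adjusted *P* = 0.948). Of 4 platelet genes tested, 2 were lower in OM LS by edgeR, with a median log2 ratio of −0.59, and the part of platelets in the level of *Vwf* was not tested.

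*Plvap* (ENSRNOG00000017676, chromosome 16, 19906318 to 19918689) was at 129, 117, 132, 132 and 116 CPM in Cx LS and at 225, 80.1, 200.4, 169.8 and 301 CPM in OM LS. In 4 of the 5 OM LS libraries it was above every Cx LS library, and in replicate 2, the library rich in proximal tubule transcripts, it was below all of them. The log2 ratio of 0.62 (SE 0.26) did not pass the test (adjusted *P* = 0.0827). Without OM LS replicate 2 it was 0.81 with an adjusted *P* of 0.000754, and the call was also made in a single fit over all 30 libraries (0.0152) and with libraries scaled by total counts (0.0317). *Cdh5* (chromosome 19, 1023683 to 1074365), *Tek* (chromosome 5, 113725717 to 113852799), *Emcn* (chromosome 2, 242634399 to 242714182) and *Egfl7* (chromosome 3, 4034921 to 4043936) had log2 ratios of 0.05, −0.05, 0.05 and −0.07 and adjusted *P* of at most 0.885, the lowest being 0.7997 for *Egfl7*. Their groups overlapped, and their SD in OM LS was 11.9 to 30.6 CPM against 1.28 to 5.85 CPM in Cx LS, so a difference of moderate size could not have been detected.

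The same contrast was read in lists of other vascular genes. Of 8 VEGF ligands and co-receptors, 0 were higher and 2 were lower in OM LS by edgeR, with 0 higher and 3 lower at an unadjusted *P* under 0.05, where 25.9% and 23.2% of all genes were, and 0 and 2 by DESeq2 and limma. The ligand gene *Vegfd* was lower (log2 ratio −2.01, adjusted *P* = 0.000238), as was the co-receptor gene *Nrp1* (−0.28, adjusted *P* = 0.0325). The *Nrp1* call was lost without Cx LS replicate 1 or 4 or OM LS replicate 3 or 4 (0.0664 to 0.0806). It was also lost with total-count scaling (0.838) and with a block for equal replicate numbers. *Vegfa*, the principal VEGF ligand gene, was at 416 to 450 CPM in Cx LS and 331 to 552 CPM in OM LS (log2 ratio 0.06, adjusted *P* = 0.743). Of 4 tested partners of *Tek*, the ligand gene *Angpt1* was lower (−2.93, adjusted *P* = 1.61e-06) and *Angpt2*, which encodes a ligand that can block the receptor, was higher (2.89, adjusted *P* = 0.00129). *Angpt1* lay at 34.0 to 52.7 CPM in Cx LS and 3.95 to 6.38 CPM in OM LS, while *Angpt2* lay at 3.06 to 5.20 CPM in Cx LS and 4.62 to 54.8 CPM in OM LS. *Tie1*, the relative of *Tek*, did not pass the test (−0.11, adjusted *P* = 0.656).

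Markers of kinds of endothelium were read against the same 21.3% of all genes higher and 19.5% lower. Of 5 glomerular genes 4 were lower in OM LS, with *Nostrin* at −1.93 (adjusted *P* = 0.000722), *Pi16* at −1.25 (0.000742), *Plat* at −0.71 (0.00588) and *Gata5* at −1.42 (0.0417), and the median log2 ratio of the 5 was −1.25. The fifth, *Tbx3*, had a log2 ratio of 0.60 and was not called (unadjusted *P* = 0.0425, adjusted *P* = 0.0895 by edgeR). With total-count scaling 1 of the 5 genes was called higher and 3 lower, where 38.8% and 12.9% of all genes were. In 1 fit over all 30 libraries 1 was higher and 4 lower, where 20.2% and 16.9% of all genes were. The *Gata5* call was lost without any 1 of the Cx LS libraries or without OM LS replicate 1, 3 or 4 (0.0547 to 0.0935). All 3 tested genes of veins and vasa recta were higher. Among these *Slc14a1*, the urea transporter of the descending vasa recta, lay at 0.229 to 0.698 CPM in Cx LS and 1.43 to 89.0 CPM in OM LS (log2 ratio 6.47, adjusted *P* = 0.000372), and *Nr2f2*, a regulator of venous identity, had a log2 ratio of 0.38 (adjusted *P* = 0.00219). The third, *Ephb4*, was at 0.21 (adjusted *P* = 0.0330). It lost its call without Cx LS replicate 1, 2, 3 or 5 or OM LS replicate 1 or 2 (0.0526 to 0.106), and with a block for equal replicate numbers. Of 6 arterial genes 2 were higher and 3 lower, led by *Efnb2* (−1.88, adjusted *P* = 1.27e-06), *Cxcl12* (0.76, 0.000421), *Sema3g* (−2.47, 0.00110) and *Gja5* (−1.25, 0.00277). In OM LS *Sema3g* spread from 30.9 to 158.8 CPM, with a median of 46.5 and a mean of 66.6 CPM, against 303.9 to 419.9 CPM in Cx LS. Of 4 lymphatic genes, *Prox1* was higher (2.95, adjusted *P* = 0.000489) and *Pdpn*, which podocytes also express, was lower (−2.54, 0.000839).

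In lists that mark endothelium in general, calls were made in both directions. Of 16 tested pan-endothelial genes 2 were higher, *Esam* (1.17, adjusted *P* = 0.00524) and *Mmrn2* (0.68, 0.0464), and 2 were lower, *Arhgef15* (−0.80, 0.0135) and *Myct1* (−0.92, 0.0146), with a median of 0.16. Of 12 transcription factor genes of endothelium 2 were higher, *Klf4* (0.78, 0.00106) and *Sox17* (0.72, 0.0171), and 2 were lower, *Epas1* (−0.91, 0.000127) and *Sox18* (−0.62, 0.0355), with a median of −0.26. The *Mmrn2* call was lost without any 1 library other than OM LS replicate 2 (0.0635 to 0.105), and with a block for equal replicate numbers. That of *Sox18* was lost without Cx LS replicate 1, 2, 4 or 5 or OM LS replicate 3 or 4 (0.0523 to 0.0850). Total-count scaling also ended the calls of *Sox18* (0.259) and *Myct1* (0.0854). Of 8 Notch pathway genes 4 were higher and 1 lower, with *Jag1* at 2.73 (adjusted *P* = 8.47e-06), *Heyl* at −0.85 (0.000222), *Hey2* at 1.37 (0.00157) and *Hey1* at 1.495 (0.00698). Among 6 genes of caveolae and of the EHD family to which *Ehd3* belongs, *Ehd1* was lower (−1.502, 0.00135). Of 3 tested adhesion genes *Selp* was higher (1.64, 0.0108). Several of these genes are expressed by tubule cells as well, so their values are those of the tissue and not of its endothelium.

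In the same libraries 7 of 8 podocyte genes were lower in OM LS, 5 of 6 proximal tubule genes were lower and all 4 thick ascending limb genes were higher by edgeR. Mean sums fell from 477 to 103 CPM for podocytes, where *Nphs1* was the most abundant in Cx LS and *Plce1* in OM LS. They fell from 16150 to 4661 CPM for proximal tubule, led by *Slc34a1* in Cx LS and *Lrp2* in OM LS. The last mean includes the 10850 CPM of OM LS replicate 2, and the other 4 OM LS libraries held at most 4935 CPM. For thick ascending limb, led by *Umod*, they were 1677 CPM in Cx LS and 16800 CPM in OM LS. Each of the 3 sums passed the two-sided exact permutation test over 252 regroupings of 5 and 5 libraries, at the smallest *P* it can give (0.00794, adjusted 0.0346 over 48 tests). No gene of these lists was at 0 in a Cx LS library, while OM LS replicate 1 had 1 podocyte gene at 0 and replicate 5 had 2, together with 1 proximal tubule gene. The part of these cells in the tissue differences of *Kdr*, *Flt1*, *Ehd3* and *Vwf* was not tested.

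**Figure D2:**
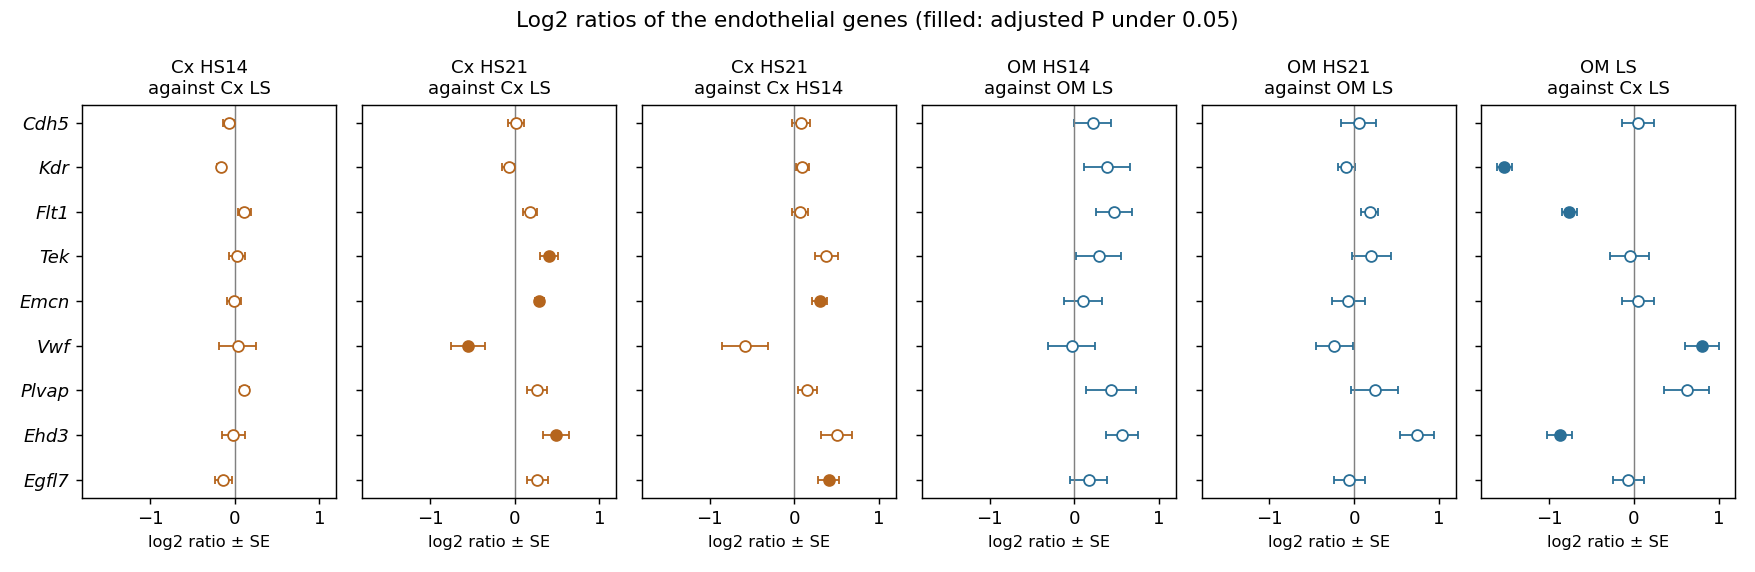
Log2 ratio with SE (horizontal axis) of each endothelial gene in 6 comparisons of 5 with 5 libraries, with filled circles for genes past an adjusted *P* of 0.05 (edgeR). Calls are 0 for Cx HS14, 4 for Cx HS21, 2 for Cx HS21 against HS14, 0 for both OM diet comparisons and 4 for OM LS against Cx LS, where *Kdr* is the farthest from 0 at −1.53.

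Next, the 9 genes were followed through the HS diet in the Cx. At HS14, edgeR raised 0 and lowered 0 of the 9 genes, where 1.14% of 14181 genes were raised and 1.18% lowered, and DESeq2 and limma also called 0 in either direction. With an unadjusted *P* under 0.05 there were 0 raised and 1 lowered, where 9.05% and 8.31% of all genes were, so 1 of 9 is near the rate of all genes. The gene lowered was *Kdr* at 163, 155, 151, 149 and 145 CPM in HS14 replicates 6 to 10, and these libraries overlapped with LS. By edgeR its log2 ratio was −0.16 (SE 0.052, unadjusted *P* = 0.00837, adjusted *P* = 0.121). The other 8 log2 ratios lay between −0.13 and 0.11, and the median of the 9 was −0.01 against −0.002 for all genes. The smallest SE was the 0.052 of *Kdr*, whose log2 ratio of −0.16 was not called, and the largest was 0.22. Changes of that size, and larger ones in genes with a larger SE, could thus have been missed. Cx HS14 replicate 10 stood apart from its group, with 11290 CPM of proximal tubule markers against 15680 to 15920 CPM. Its thick ascending limb sum was 2814 CPM against 1580 to 1719 CPM. Without it 274 genes were raised at HS14 in place of 162. For HS21 against HS14, 1476 were then raised and 2048 lowered in place of 935 and 1395.

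Of 74 tested genes of the 11 other vascular lists, edgeR raised 2 and lowered 2 in Cx at HS14, where 1.14% and 1.18% of all genes were. At an unadjusted *P* under 0.05, 11 were raised and 7 lowered, where 9.05% and 8.31% of all genes were. *Nrp1* (−0.29, adjusted *P* = 0.0463) and the Notch target *Heyl* (−0.37, 0.0331) were lowered. The leukocyte adhesion genes *Selp* (1.69, 0.0445) and *Icam1* (0.48, 0.0496) were raised. Each of these calls was lost in the single fit over 30 libraries, with limma, and without any 1 of at least 8 of the 10 libraries, among them every Cx LS library (adjusted *P* up to 0.123 for *Nrp1*, 0.0869 for *Heyl*, 0.0981 for *Selp* and 0.114 for *Icam1*). Summed markers of leukocytes were already higher, at 1620 CPM against 1105 CPM (exact permutation *P* = 0.00794, adjusted 0.0346), with *Cd74* the most abundant of the 10 genes.

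At HS21, 3 of the 9 genes were raised in the Cx, where 18.9% of 14299 genes were raised, and 1 was lowered, where 20.5% were lowered. The count raised is somewhat above and the count lowered somewhat below the rates of all genes, and neither is far from them with 9 genes. The median log2 ratio of the 9 was 0.27, against 0.005 for all genes, and 7 of 9 were above 0. Only for *Emcn* did the 5 HS21 libraries not overlap with the 5 LS libraries, 1 of 9 where 26.4% of all genes tested did not.

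*Emcn* (ENSRNOG00000022910) was at 55.6, 55.6, 57.6, 56.4 and 54.1 CPM in Cx LS replicates 1 to 5. It was at 56.7, 48.5, 63.7, 49.7 and 62.4 CPM in HS14 replicates 6 to 10, and at 69.6, 67.1, 62.2, 71.8 and 74.9 CPM in HS21 replicates 11 to 15. The LS libraries lay very close together, the HS14 libraries spread on both sides of them, and every HS21 library was above every LS library. The log2 ratio at HS21 was 0.29 (SE 0.054, adjusted *P* = 0.00145), the smallest SE of the 9. Against HS14 it was 0.30 (SE 0.091, adjusted *P* = 0.0462), a call lost without HS14 replicate 6, 7 or 9 or HS21 replicate 11, 12, 14 or 15 (0.0677 to 0.109).

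*Tek* (ENSRNOG00000008587) was at 76.3, 75.7, 80.0, 85.1 and 89.4 CPM in Cx LS and at 96.6, 98.3, 88.8, 136 and 125 CPM in HS21. Replicate 13 of HS21 lay just below the highest LS library and the other 4 lay above all LS libraries. The log2 ratio was 0.40 (SE 0.11, adjusted *P* = 0.0121). *Ehd3* was at 82.3, 65.8, 74.6, 95.5 and 125 CPM in HS21, where 4 of 5 libraries were above the highest LS value of 72.7 CPM and replicate 15 was highest. Its log2 ratio was 0.49 (SE 0.15, adjusted *P* = 0.0256), and the call was lost without Cx LS replicate 1 (0.0599), 2 (0.0628) or 5 (0.0534) or Cx HS21 replicate 14 (0.0528).

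*Vwf* was the gene that fell. In HS21 it was at 38.8, 56.6, 29.4, 25.0 and 45.1 CPM, against 44.3 to 69.9 CPM in LS, and 3 of the 5 HS21 libraries were below every LS library. The log2 ratio was −0.55 (SE 0.20, adjusted *P* = 0.0439). This call was weak: it was lost with any of 7 of the 10 libraries left out (Cx LS replicates 1, 3, 4 and 5 and Cx HS21 replicates 11, 13 and 14, adjusted *P* 0.0593 to 0.105) and with scaling by total counts (0.102). In HS14 the gene spread from 33.8 to 84.4 CPM, with replicates 6 and 7 above and replicate 8 below all LS libraries.

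The other 5 genes did not pass the test in Cx at HS21. *Plvap* was at 117, 139, 144, 169 and 194 CPM in HS21, with a log2 ratio of 0.27 (adjusted *P* = 0.0874). *Flt1* was at 118, 125, 138, 151 and 154 CPM (0.18, adjusted *P* = 0.0914), and *Egfl7* at 43.4, 66.6, 53.0, 50.1 and 44.5 CPM (0.27, 0.103). In these 3 genes HS21 replicate 11 was the lowest library of its group, and without it all 3 were called, with adjusted *P* of 0.0163, 0.0271 and 0.0493. *Kdr* (−0.07, adjusted *P* = 0.492) and *Cdh5* (0.01, 0.919) were at 136 to 182 CPM and 33.7 to 46.9 CPM and covered the range of LS. Against HS14, 2 of 9 were raised, where 6.5% of 14395 genes were, and 0 of 9 lowered by edgeR, where 9.69% were, with 0 lowered also at an unadjusted *P* under 0.05, where 17.9% were, and by DESeq2 and limma. Beside *Emcn* the gene raised was *Egfl7* (ENSRNOG00000019388, 0.40, adjusted *P* = 0.0497), a call lost without HS14 replicate 6, 7, 8 or 9 or HS21 replicate 12, 13, 14 or 15 (0.0536 to 0.113). In the single fit over 30 libraries neither was called (0.301 for *Emcn* and 0.188 for *Egfl7*), limma did not call *Egfl7* (0.0525), and without the filter *Emcn* was not called (0.0520).

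The calls in Cx at HS21 depended on the fit and on the scaling. In a single fit over all 30 libraries, with 1 estimate of the spread for both tissues, 1397 genes were raised and 883 lowered in place of 2702 and 2936, and 0 of the 9 genes were called, with adjusted *P* of 0.151 for *Tek*, 0.201 for *Emcn*, 0.0841 for *Ehd3* and 0.172 for *Vwf* and nearly the same log2 ratios. With total-count scaling the median log2 ratio of all genes was 0.13, 4401 genes were raised and 1653 lowered, and of the 9 genes 6 were raised and 0 lowered. The directions of all 4 genes called were the same in every setting tried.

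Calls in both directions were also made among the ligands and partners of these receptors. By edgeR 1 of 8 VEGF genes was raised and 1 lowered, where 18.9% and 20.5% of all genes were. Of 5 partners of *Tek* 0 were raised and 1 lowered. At an unadjusted *P* under 0.05 these were 1 and 2, where 23.5% and 24.7% of all genes were. Such counts say little about these lists as groups. Of 8 VEGF ligands and co-receptors, *Vegfa* was raised in Cx at HS21 (459 to 549 against 416 to 450 CPM, without overlap, log2 ratio 0.19, adjusted *P* = 0.0255) and *Nrp1* was lowered (−0.29, adjusted *P* = 0.00192). The *Vegfa* call was lost without Cx LS replicate 1 (0.0664), 3 (0.0513) or 5 (0.0540). Of 5 partners of *Tek*, *Angpt1* fell from 34.0 to 52.7 CPM in LS and 24.5 to 42.8 CPM in HS14 to 11.98 to 23.6 CPM in HS21 (log2 ratio −1.09, SE 0.18, adjusted *P* = 0.000809). *Angpt2* (0.48, adjusted *P* = 0.0612), *Tie1* (0.009, 0.946) and the receptor phosphatase gene *Ptprb* (−0.21, 0.103) did not pass the test.

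General endothelial genes were read against the same 18.9% of all genes raised and 20.5% lowered. Of 16 tested pan-endothelial genes 11 were raised and 0 lowered by edgeR, with the same counts at an unadjusted *P* under 0.05, where 23.5% and 24.7% of all genes were, and their median was 0.35. *Icam2*, an adhesion molecule of resting endothelium, rose from 16.3 to 17.5 CPM in LS to 23.9 to 32.0 CPM in HS21 (0.74, adjusted *P* = 9.16e-05). *Nos3*, endothelial nitric oxide synthase, was at 0.62 (0.000354), *Adgrl4* at 0.67 (0.000510) and *Mmrn2* at 0.46 (0.000599). *Cldn5* was at 0 counts in all 30 libraries and *Gpihbp1* was not tested. Of 12 transcription factor genes 8 were raised and 0 lowered, with *Gata2* at 0.73 (0.00140), *Ets1* at 0.40 (0.00762), *Sox17* at 0.35 (0.0109) and *Hhex* at 0.51 (0.0112) and a median of 0.38. Of 7 tested Notch pathway genes 3 were raised: *Notch4* (0.50, 0.000368), *Notch1* (0.32, 0.0186) and the ligand gene *Dll4* (0.32, 0.0191). The mean leukocyte sum rose from 1105 to 3202 CPM in these libraries. The values of the lists are those of the tissue and not of its endothelium.

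Among kinds of endothelium, 3 of 5 glomerular genes were raised in Cx at HS21: *Plat*, tissue plasminogen activator (0.64, adjusted *P* = 0.00200), *Pi16* (0.58, 0.00529) and *Tbx3* (0.45, 0.0276), whose call was lost without Cx LS replicate 1 or 5 or Cx HS21 replicate 12 or 13 (0.0519 to 0.0655). *Nostrin* (−0.13, 0.381) and *Gata5* (−0.11, 0.721) did not pass. Of 6 tested arterial genes *Cxcl12* (0.48, 0.00521) and *Sema3g* (0.43, 0.00701) were raised and *Efnb2* was lowered (−0.36, 0.00243). The venous regulator *Nr2f2* was lowered (−0.24, 0.0110, not called with total-count scaling at 0.178) and *Ephb4* was not called. Of 4 lymphatic genes the chemokine gene *Ccl21* (1.27, 0.00160) and *Lyve1* (0.42, 0.0102) were raised.

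The caveolar and EHD genes moved in both directions. Of 6 tested 5 were raised, among them *Cav1* (0.80, adjusted *P* = 0.00115), *Cavin3* (0.69, 0.000581) and *Ehd4* (0.37, 0.00122), and *Ehd1* was lowered (−0.66, 6.17e-05). *Ehd1* went from 340.1 to 382 CPM in LS to 207 to 269 CPM in HS21 without overlap, so the family members *Ehd3* and *Ehd1* changed in opposite directions. All 3 tested adhesion genes that inflammation induces were raised: *Icam1* (0.62, 0.00242), *Vcam1* (1.13, 0.00868) and *Selp* (1.59, 0.0104). In the single fit over 30 libraries, 9.02% of 15494 genes were raised and 5.7% lowered. The counts raised there were 4 of 16 pan-endothelial genes, 1 of 12 transcription factors, 0 of 8 Notch genes, 1 of 5 glomerular genes, 3 of 6 caveolar and EHD genes and 3 of 4 adhesion genes. Of the VEGF list 0 were called.

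**Figure D3:**
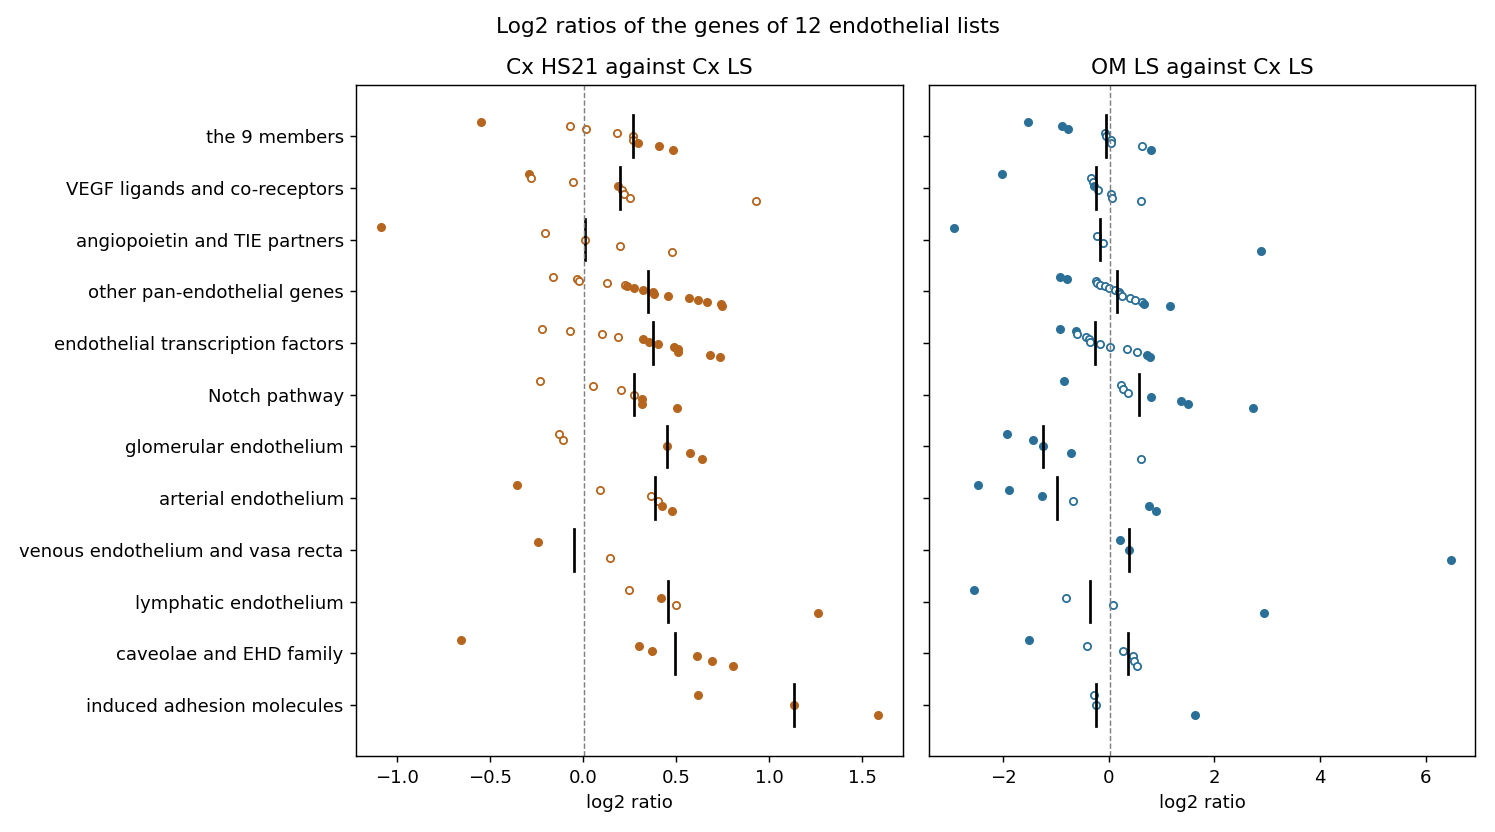
Log2 ratios (horizontal axis) of the tested genes of 12 endothelial lists for Cx HS21 against Cx LS and OM LS against Cx LS, 1 circle per gene, filled where the adjusted *P* is under 0.05 (edgeR), with a black bar at the list's median and a dashed line at the median of all genes tested. In Cx at HS21 the medians of the pan-endothelial (0.35) and transcription factor (0.38) lists lie above that of all genes (0.005), and in OM LS the glomerular list has a median of −1.25.

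Markers of other cells moved in the same Cx libraries. Leukocyte markers summed to 1093, 1088, 1160, 1159 and 1026 CPM in Cx LS and to 2813, 2108, 1425, 3923 and 5742 CPM in HS21, and all 9 tested were raised, with *Cd74* the most abundant. Replicates 14 and 15, the highest for leukocytes, were also the highest for *Tek*, *Ehd3*, *Emcn*, *Plvap*, *Flt1* and *Kdr*, the last of which was not called (−0.07, adjusted *P* = 0.492). Podocyte markers summed to 439, 489, 491, 496 and 470.1 CPM in LS and 702, 668, 623, 550 and 590 CPM in HS21, with 7 of 8 raised and *Nphs1* the most abundant. Proximal tubule markers, led by *Slc34a1*, summed to 15300 to 16930 CPM in LS and to 9392, 9086, 12080, 10080 and 9379 CPM in HS21, and all 6 were lowered. Thick ascending limb markers, led by *Umod*, summed to 1335 to 1960 CPM in LS and to 3109, 2745, 3086, 2421 and 2281 CPM in HS21, with 3 of 4 raised.

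Erythroid markers, 4 genes led by *Slc4a1*, which intercalated cells also express, summed to 490 to 747 CPM in LS and 845 to 1888 CPM in HS21, with 1 of 4 raised. The leukocyte, podocyte, proximal tubule, thick ascending limb and erythroid sums did not overlap between Cx LS and HS21, each at the smallest exact permutation *P* (0.00794, adjusted 0.0346 over 48 tests). Mural cell markers, led by *Mylk*, summed to 440.0 to 523 CPM in LS and 409.9 to 573 CPM in HS21, with 2 of 10 raised and 1 lowered. Fibroblast markers, led by *Col3a1* in LS and *Dcn* in HS21, summed to 361 to 503 CPM and 386 to 617 CPM, with 1 of 6 raised, and platelet markers to 21.8 to 26.7 CPM and 24.5 to 37.6 CPM, with 0 of 4 tested raised by edgeR and also at an unadjusted *P* under 0.05. These 3 sums overlapped between the groups, with adjusted *P* of 0.714, 0.809 and 0.396. Replicates 14 and 15 of HS21 were the highest of their group for these sums too, at 571 and 573 CPM for mural cells, 617 and 586 CPM for fibroblasts and 32.4 and 37.6 CPM for platelets. The part of all these cells in the changes of *Tek*, *Emcn*, *Ehd3*, *Vwf* and the genes of the vascular lists was not tested.

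In the OM the HS diet gave 0 calls among the 9 genes at either time. At HS14, 0 were raised where 0.00694% of 14417 genes were, and 0 lowered where 0% were, by edgeR, and DESeq2 and limma called 0 as well. At HS21, 0 were raised where 0.639% of 14555 genes were, and 0 lowered where 0.131% were, by edgeR and by limma, while DESeq2 raised 1 and 3.68% of all genes. With an unadjusted *P* under 0.05, 1 was raised and 0 lowered at each time, in both cases *Ehd3*, where 4.28% and 1.45% of all genes were at HS14 and 6.95% and 4.29% at HS21. The median log2 ratio of the 9 was 0.29 at HS14 and 0.05 at HS21, against −0.02 and −0.03 for all genes. With so few genes called in all, these counts of 0 do not set the 9 apart.

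*Ehd3* was at 32.8, 28.5, 30.4, 30.5 and 49.5 CPM in OM LS, at 48.5, 41.9, 69.6, 45.3 and 49.2 CPM in HS14 and at 43.7, 49.4, 48.9, 66.2 and 82.7 CPM in HS21. All HS14 and HS21 libraries were above 4 of the 5 LS libraries, and they overlapped with LS through replicate 5. By edgeR the log2 ratios were 0.57 (SE 0.19, unadjusted *P* = 0.0117, adjusted *P* = 0.609) and 0.74 (SE 0.20, unadjusted *P* = 0.00414, adjusted *P* = 0.135), both against the same LS libraries. At HS21 DESeq2 (adjusted *P* = 0.0232) and the single fit over 30 libraries (0.0296) made the call. No gene of the 9 had OM HS21 libraries clear of OM LS, against 3.52% of all genes tested.

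*Kdr* in OM HS14 was at 51.3, 64.9, 66.2, 61.3 and 139 CPM, of which replicate 10, the library with the fewest counts and the most intronic reads, alone exceeded 68.0 CPM. The part of library quality in its levels was not tested. The log2 ratio of 0.39 (SE 0.27, adjusted *P* = 0.994) became 0.03 without that library. *Flt1* reached 131 CPM in the same library and was at 86.8, 58.7, 101 and 112 CPM in the other 4 (0.47, SE 0.21, adjusted *P* = 0.871), and its log2 ratio was 0.32 without replicate 10 (0.591). *Plvap* was at 247, 229, 378, 249 and 223 CPM in OM HS14 and at 193, 233, 223, 287 and 237 CPM in OM HS21, with log2 ratios of 0.44 (adjusted *P* = 0.994) and 0.24 (0.855). The remaining genes had log2 ratios between −0.03 and 0.29 at HS14 and between −0.23 and 0.21 at HS21.

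None of the 11 other vascular lists had a gene called by edgeR in OM at HS14 or HS21, while DESeq2 raised 4 of their 77 tested genes at HS14 (0.624% of all genes) and 6 of 76 at HS21 (3.68%), and limma 0 and 1 (0.00694% and 0.756%). The nearest VEGF ligand gene was *Vegfd*, which was not called but did not overlap with OM LS at either time (1.58, adjusted *P* = 0.367, and 1.49, 0.0785). Of all genes tested, 1.49% did not overlap at HS14 and 3.52% at HS21, both against the same OM LS libraries. At an unadjusted *P* under 0.05, 17 of the 77 were raised and 0 lowered at HS14, where 4.28% and 1.45% of all genes were, and 14 of the 76 were raised and 2 lowered at HS21, where 6.95% and 4.29% were. Those raised at HS14 included 4 of 16 pan-endothelial genes, 3 of 12 transcription factors, 3 of 8 VEGF genes and 3 of 4 adhesion genes, and at HS21 there were 2 from each of these lists and 3 of 6 arterial genes. The medians of the pan-endothelial and transcription factor lists were 0.44 and 0.46 at HS14 and 0.31 and 0.34 at HS21. Both times were set against the same OM LS libraries, among them replicate 2, the library rich in proximal tubule transcripts. In OM LS *Esam* spread from 29.5 to 108 CPM and *Mmrn2* from 21.0 to 70.0 CPM. The part of replicate 2 in these counts and medians was not tested. Leukocyte sums rose at HS21 from 441 to 1364 CPM in OM LS to 3347, 1884, 1698, 3129 and 3676 CPM (exact permutation *P* = 0.00794, adjusted 0.0346), with 4 of 10 genes raised. Mural cell sums, led by *Mylk*, were higher at HS14 (543 to 814 against 364 to 528 CPM, exact permutation, adjusted *P* = 0.0346). By edgeR 0 of the 9 tested mural genes were called, and 4 were raised at an unadjusted *P* under 0.05. Fibroblast sums, led by *Col3a1*, were at 584 to 1050 CPM at HS14 against 306 to 623 CPM in LS (exact permutation *P* = 0.0159, adjusted 0.0545), and all 5 tested fibroblast genes were raised at an unadjusted *P* under 0.05, with 0 called by edgeR, 0 by limma and 2 by DESeq2. Leukocyte sums, led by *Cd74*, were at 805 to 2383 CPM at HS14 (exact permutation *P* = 0.0873, adjusted 0.200), and the median log2 ratio of the 10 genes was 0.97. Of these 8 were raised at an unadjusted *P* under 0.05, while edgeR and limma called 0 and DESeq2 called 3. The other OM sums did not pass the test at either time. The part of these cells in the levels of the 9 genes was not tested.

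Whether the change at HS21 differed between the tissues was tested as an interaction over 20 libraries. By edgeR, 0 of the 9 genes had a larger and 0 a smaller change in OM, where 0.448% and 0.217% of 15194 genes did, with 0 at an unadjusted *P* under 0.05, where 6.59% and 8.99% did, and 0 by DESeq2 and limma. So the calls of *Tek*, *Emcn*, *Ehd3* and *Vwf* in Cx and their lack in OM do not show that the tissues differed. The interaction was −0.21 for *Tek* (adjusted *P* = 0.757), −0.36 for *Emcn* (SE 0.21, 0.425), 0.25 for *Ehd3* (0.695) and 0.32 for *Vwf* (0.656). For *Emcn* it was −0.49 with an adjusted *P* of 0.0347 when OM LS replicate 2 was left out. Of 77 tested genes of the vascular lists, 2 had a larger and 0 a smaller change in OM. *Angpt1* passed, with a change in OM minus that in Cx of 1.88 (SE 0.28, adjusted *P* = 0.00501), and it kept the call in all settings tried. It was at 3.95 to 6.38 CPM in OM LS and 6.05 to 10.9 CPM in OM HS21. *Efnb2* also passed (0.66, adjusted *P* = 0.0282). Its call was lost with total-count scaling (0.0749), in the single fit over 30 libraries (0.133) and with a block for equal replicate numbers. It was also lost without Cx LS replicate 4, Cx HS21 replicate 15 or OM LS replicate 1, 3 or 4 (0.0508 to 0.0581).

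Within the groups, the 9 genes did not vary as 1 block. After subtraction of each group's mean log2 CPM, the median Pearson *r* over the 36 pairs of genes was 0.10 in the 15 Cx libraries and 0.33 in the 15 OM libraries. These correlations are descriptions, given without *P*, and the libraries share their scaling. In OM, *Emcn* and *Plvap* rose and fell together (Pearson *r* = 0.944, Spearman *rho* = 0.868, *r* = 0.817 without the 2 libraries farthest from the median of the gene named first), and in Cx the values were 0.237, 0.371 and 0.306. In Cx the closest pair was *Flt1* and *Tek* (0.848, 0.900 and 0.788), followed by *Tek* and *Ehd3* (0.809, 0.843 and 0.831). *Vwf* ran against *Cdh5* and *Tek* in OM, with −0.747, −0.796 and −0.678 for *Cdh5* and −0.728, −0.839 and −0.733 for *Tek*.

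Marker sums varied between the OM pieces as well. In OM LS, proximal tubule sums were 2848, 10850, 4935, 4117 and 555 CPM in replicates 1 to 5. Replicate 2 had the lowest *Cdh5* (24.6 CPM), *Tek* (38.7), *Emcn* (32.4), *Plvap* (80.1), *Ehd3* (28.5) and *Egfl7* (26.2) of its group and the highest *Vwf* (140 CPM). Replicate 5 had the highest *Cdh5* (58.3 CPM), *Tek* (125), *Emcn* (83.9), *Plvap* (301), *Ehd3* (49.5) and *Egfl7* (55.9) and the lowest *Vwf* (69.5 CPM). Replicate 2 had the highest platelet sum of OM LS too (41.6 CPM).

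Of 72 relations per tissue between a gene and a marker sum, those with an absolute *r* of at least 0.7, a limit chosen after the values were seen, were 16 in OM and 8 in Cx. Over the 15 OM libraries the proximal tubule sum correlated with *Cdh5* at *r* = −0.860 (*rho* = −0.814, −0.685 without the 2 farthest), *Egfl7* at −0.751 (−0.757 and −0.708), *Emcn* at −0.787 (−0.650 and −0.446), *Tek* at −0.776 (−0.450 and −0.332), *Plvap* at −0.754 (−0.504 and −0.364) and *Vwf* at 0.740 (0.704 and 0.720). The platelet sum correlated with *Tek* at −0.844 (−0.768 and −0.689), *Cdh5* at −0.710 (−0.629 and −0.423) and *Vwf* at 0.806 (0.832 and 0.885). With both sums the sign for *Vwf* was opposite to that of the other genes named. The thick ascending limb sum correlated with *Tek* at 0.814 (0.461 and 0.371), *Cdh5* at 0.777 (0.754 and 0.471), *Emcn* at 0.747 (0.593 and 0.216) and *Plvap* at 0.701 (0.339 and −0.0183), and each of these *r* was lower without the 2 farthest libraries, that of *Plvap* near 0. The leukocyte sum correlated with *Emcn* at 0.736 (0.621 and 0.553) and *Plvap* at 0.734 (0.682 and 0.547), and the fibroblast sum with *Ehd3* at 0.749 (0.532 and 0.596).

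In Cx the sign for *Cdh5* and the proximal tubule sum was the opposite, at 0.846 (0.839 and 0.723). The mural cell sum correlated there with *Flt1* at 0.889 (0.864 and 0.834), *Ehd3* at 0.814 (0.868 and 0.801) and *Tek* at 0.788 (0.814 and 0.673). *Tek* also followed the fibroblast sum at 0.808 (0.804 and 0.692) and the leukocyte sum at 0.772 (0.807 and 0.754). *Ehd3* followed the leukocyte sum at 0.771 (0.836 and 0.687), and *Plvap* the platelet sum at 0.778 (0.664 and 0.470). These were taken from 108 relations per tissue, among the 9 genes and with 8 marker sums.

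Outside all lists, the 5 genes most like the mean of the 9 over the 30 libraries, of 13938 genes with at least 1 CPM on average, were *Sh2d3c* (*r* = 0.911), *Pear1* (0.904), *Ppap2b* (0.884), *Fmnl3* (0.877) and *Bgn* (0.873). All 5 had a higher *r* in OM than in Cx. In Cx and OM it was 0.866 and 0.925 for *Sh2d3c*, 0.757 and 0.941 for *Pear1* and 0.604 and 0.95 for *Ppap2b*. For *Fmnl3* it was 0.553 and 0.953, and for *Bgn* 0.744 and 0.907. Of these *Sh2d3c* (0.61, adjusted *P* = 0.00259), *Pear1* (0.44, 0.00924) and *Fmnl3* (0.40, 0.000532) were raised in Cx at HS21, and *Ppap2b* (0.10, 0.186) and *Bgn* (0.27, 0.0681) were not called. *Tek* overlaps a pseudogene and *Egfl7* a microRNA gene on the other strand, which unstranded reads cannot separate, but these had at most 1 and 21 counts in any library.

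Promoters are shown for genes raised in Cx at HS21, where RefSeq gave one, and for the VEGF receptor genes that were lower in OM LS. RefSeq promoter sequences (build GRCr8, 300 bases around the start of the gene) were matched by symbol for 5 of the 9 genes, *Kdr*, *Flt1*, *Emcn*, *Plvap* and *Ehd3*. They were searched on both strands for AGGAAG only, 1 of the sequences that ETS factors such as those of *Erg*, *Fli1* and *Ets1* can bind. It stood in 4 of the 5 promoters and in 34.5% of all 33469 promoters of 300 bases. The sequences read 5′ to 3′ along the gene, with the motif or its reverse complement in capitals. *Emcn* (chr2:228564289-228564588, plus strand) and *Ehd3* (chr6:27417396-27417695, minus strand) rose in Cx at HS21. The deposited table places *Ehd3* on the plus strand of Rnor_6.0, while RefSeq places it on the minus strand of GRCr8, a difference that was not resolved here, and the other 4 genes have the same strand in both.
Emcn: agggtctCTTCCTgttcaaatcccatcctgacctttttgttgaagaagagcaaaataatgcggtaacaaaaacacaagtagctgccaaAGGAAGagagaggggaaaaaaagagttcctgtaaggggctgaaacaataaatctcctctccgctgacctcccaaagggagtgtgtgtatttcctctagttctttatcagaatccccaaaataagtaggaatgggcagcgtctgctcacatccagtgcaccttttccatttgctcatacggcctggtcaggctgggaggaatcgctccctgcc
Ehd3: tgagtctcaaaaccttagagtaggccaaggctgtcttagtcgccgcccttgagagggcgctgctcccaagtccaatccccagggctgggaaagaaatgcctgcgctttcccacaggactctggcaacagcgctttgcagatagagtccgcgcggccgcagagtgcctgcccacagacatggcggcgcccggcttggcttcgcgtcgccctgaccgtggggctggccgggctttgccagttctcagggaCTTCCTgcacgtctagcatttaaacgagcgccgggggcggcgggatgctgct
*Kdr* (chr14:32571813-32572112, plus strand) and *Flt1* (chr12:12333180-12333479, plus strand) were lower in OM LS than in Cx LS.
Kdr: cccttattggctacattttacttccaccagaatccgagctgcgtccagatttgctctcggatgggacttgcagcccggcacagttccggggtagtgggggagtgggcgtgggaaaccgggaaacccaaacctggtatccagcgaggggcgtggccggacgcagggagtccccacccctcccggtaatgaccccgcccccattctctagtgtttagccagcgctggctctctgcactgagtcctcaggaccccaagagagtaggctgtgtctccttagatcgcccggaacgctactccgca
Flt1: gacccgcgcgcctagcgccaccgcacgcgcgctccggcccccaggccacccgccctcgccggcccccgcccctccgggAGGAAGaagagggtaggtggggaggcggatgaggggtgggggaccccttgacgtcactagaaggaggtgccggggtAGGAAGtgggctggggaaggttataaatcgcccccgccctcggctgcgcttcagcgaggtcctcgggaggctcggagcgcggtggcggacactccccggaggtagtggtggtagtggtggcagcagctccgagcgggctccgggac
*Emcn* and *Flt1* held 2 matches each, *Ehd3* 1 and *Kdr* 0. *Plvap*, which was called in neither comparison and is not shown, held 2. A match in these letters is a description and not a binding site. Other sequences that ETS factors can bind were not searched for, so a count of 0 does not show that a promoter lacks them.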

How the data were processed

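Counts per gene were deposited by the authors, who aligned clean read pairs to Ensembl Rnor_6.0 with HISAT2 2.0.5 and counted them with featureCounts 1.5.0-p3, without normalization. The FPKM deposited beside them were scaled by the authors by gene length and library size factors, and were used only in 1 alternative fit. The gene length, another column of the authors' table, gave RPKM. Columns with the authors' group means, fold changes and *P* values were not used here. Groups came from the sample labels. No 2 libraries of a group were copies, since the difference per gene in 60 pairs was at least 7.29 times counting noise.

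Genes were tested with edgeR 4.0.16 in R 4.3.3 (filterByExpr, TMM, glmQLFit and glmQLFTest) on the 10 libraries of each pair of groups, or 20 for the interaction. The SE was derived from the log2 ratio and F. DESeq2 1.42.0 and limma 3.58.1, on log2(FPKM + 1), were alternatives, with other scalings, no filter, 1 fit over 30 libraries, a replicate block, and each library left out. Log2 CPM for correlations used a prior count of 2. Marker sums were compared by two-sided exact permutation.

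The members and lists were chosen with earlier results of these data known. Named are all members found, per list and comparison up to 4 genes with the smallest adjusted *P* past 0.05, genes whose role a sentence needs, and the 5 genes most like the members. Not analysed here were *Pecam1* and, of the lists, *Ackr1*, *Cavin1*, *Cavin2*, *Hbb-bs* and *Hba-a2*. Counting error is part of the spread between libraries.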

Additional observations from a re-analysis of the deposited data

Results flagged for a closer look

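In 4 of the 54 groups of 5 libraries, 1 library lay far from the others of its group, and chance flags about 1 in 20 groups. *Kdr* in OM HS14 replicate 10 was at 139.2 CPM, where the next library was at 66.2 CPM and the lowest at 51.3 CPM, and this library had the fewest counts of all. *Kdr* in OM HS21 replicate 15 was at 46.6 CPM, below the next library at 56.8 CPM. *Plvap* in OM HS14 replicate 8 was at 378.1 CPM, above the next at 248.6 CPM. *Ehd3* in OM LS replicate 5 was at 49.5 CPM, above the next at 32.8 CPM.

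Of 77 tested genes of the vascular lists, 2 passed edgeR's test of the interaction between tissue and diet at HS21. Both had a larger change in OM and 0 a smaller one, where 0.448% and 0.217% of 15194 genes did. The change in OM minus that in Cx was 1.88 for *Angpt1* (adjusted *P* = 0.00501) and 0.66 for *Efnb2* (adjusted *P* = 0.0282). The call of *Angpt1* was kept in all settings tried. That of *Efnb2* was lost with total-count scaling (0.0749), in the single fit over 30 libraries (0.133) and with a block for equal replicate numbers. It was also lost without any of 5 single libraries (0.0508 to 0.0581). In Cx the log2 ratios were −1.09 and −0.36, both called, and in OM they were 0.80 and 0.30 (adjusted *P* = 0.109 and 0.301).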

How the results depend on the processing

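Counts below are raised and lowered, with edgeR, unless named. The cause was not tested for any of these shifts. By total-count scaling, which moved the median log2 ratio of all genes to 0.13 for Cx HS21, 0.13 for Cx HS21 against HS14, 0.27 for OM LS against Cx LS and −0.16 for the interaction, they were 4401 and 1653 genes for Cx HS21 (members 6 and 0), 2084 and 644 for Cx HS21 against HS14 (4 members raised), 0 raised for OM HS14, 35 and 9 for OM HS21, 5546 and 1842 for OM LS against Cx LS (2 members raised) and 54 lowered for the interaction. DESeq2 gave 492 and 429 for Cx HS14, 1478 raised for Cx HS21 against HS14 (4 members), 90 and 19 for OM HS14, 535 and 166 for OM HS21 (1 member raised) and 350 and 206 for the interaction. In the single fit over 30 libraries they were 10 and 9 for Cx HS14, 1397 and 883 for Cx HS21 (0 and 0 members), 259 and 170 for Cx HS21 against HS14 (0 members), 136 and 23 for OM HS14, 425 and 81 for OM HS21 (1 member raised), 23 and 4 for the interaction, and 2 members raised for OM LS against Cx LS. Limma raised 1 member for Cx HS21 against HS14 and 137 genes for the interaction. Without a filter 1 member was raised for Cx HS21 against HS14, 0 genes for OM HS14, and 10 genes were lowered for the interaction.

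With 1 library left out at a time, genes raised and lowered were 42 to 274 and 43 to 232 for Cx HS14, 2389 to 2749 and 2533 to 3000 for Cx HS21 (members 2 to 6 and 0 to 1), 337 to 1476 and 692 to 2048 for Cx HS21 against HS14 (members 0 to 2 raised), 0 to 4 and 0 for OM HS14, 9 to 159 and 0 to 31 for OM HS21, 2544 to 3768 and 2388 to 3790 for OM LS against Cx LS (members 1 to 2 raised, 3 lowered) and 34 to 729 and 4 to 546 for the interaction (0 to 1 member lowered). Leaving out OM LS replicate 2 and OM HS14 replicate 10 together, chosen after seeing the data, gave 4 and 2 genes for OM HS14 and a log2 ratio of −0.007 for *Kdr*. Of 10 calls of members all kept their sign, 4 were kept in all other settings and 6 with any library left out. Of the list calls, 81 were of genes named by the rule for that comparison and refitted in each setting. All of these kept their sign, and 40 and 62 were kept.

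Whether equal numbers pair the tissues was checked by correlation of deviations from group means. It was −0.0823 to 0.508 over 15 pairs, 0.263 to 0.508 in the 5 of HS21, and over 0.1 in 12, so not in every pair. Of the 15 Cx libraries 13 correlated best with their own number, each among the 5 OM libraries of its diet group. This is a clear sign of pairing in the data, which the sources used here do not state. The main fits treated the tissues as separate samples. With the replicate block, OM LS against Cx LS gave 2442 and 2569 genes and 1 and 3 members, with *Kdr* at −1.54 (adjusted *P* = 0.000281), and the interaction 60 and 34 genes and 0 members. *Mmrn2* (0.0909), *Nrp1* (0.0524) and *Ephb4* (0.109) in OM LS against Cx LS and *Efnb2* (0.0517) in the interaction were not called with it. With the block and without replicate 2 of both tissues, chosen after seeing the data, 2 members were raised.

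Depth was lowest in 1 library of OM HS14, at 5408126 counts, while the median of that group was 14160890 and that of OM LS 14169399. Without that library, replicate 10, 4 genes were raised for OM HS14 in place of 1. The part of depth was not tested. With 5 libraries a group, even a change of several SE could be missed. By edgeR *Ehd3* in OM at HS21 had a log2 ratio of 0.74 with an SE of 0.20 and was not called.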
